A study of Mus musculus with 19 samples.

Results

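The transcription factors of naive pluripotency were followed as a set of 10 genes (*Pou5f1*, *Sox2*, *Nanog*, *Utf1*, *Klf2*, *Klf4*, *Klf5*, *Esrrb*, *Tfcp2l1* and *Tbx3*) in single mouse blastocysts that lacked *Upf2* and in their controls. The 10 were given as a list of symbols and were matched to the count table by Ensembl identifier and GRCm38 symbol, so all 10 were found among its 41388 genes, and all 10 were among the 17137 genes tested. UPF2 is a core factor of nonsense-mediated RNA decay (NMD), the pathway that degrades transcripts whose translation ends too early. RNA was sequenced from 19 whole early blastocysts at E3.25, of which 8 were *Upf2*-/- (*Upf2*-null) and 11 were *Upf2*+/+ (control). All came from matings between heterozygous carriers on a C57BL/6 background, were collected as zygotes from hormone-primed females and were grown in M16 medium until 90 to 94 h after the ovulatory injection. The null allele lacks exons 2 and 3 in every cell. It was made with a Cre driven by the *E2a* promoter and still encodes a truncated protein, which had been shown elsewhere to have no NMD activity. The heterozygous mothers could supply UPF2 to the egg. Each library was a whole embryo, so its RNA pooled the epiblast precursors with the primitive endoderm and the trophectoderm.

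Naive pluripotency is the state of the preimplantation epiblast, from which every cell of the fetus can arise, and mouse embryonic stem cells hold it in culture. OCT4 (encoded by *Pou5f1*) and SOX2 bind DNA side by side and, with NANOG, form the core of its transcription factor network. ESRRB, TFCP2L1, TBX3 and the Krüppel-like factors KLF2, KLF4 and KLF5 make up an outer layer that responds to LIF and to inhibition of ERK and GSK3, and UTF1 is a chromatin-bound factor of undifferentiated cells. Several members are not restricted to the epiblast in the blastocyst. OCT4 is still present in other cells of the early blastocyst, TBX3 occurs in primitive endoderm, and KLF5 occurs in trophectoderm.

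The bases before the *Nanog* and *Sox2* start sites are shown because both hold the octamer core bound by OCT4, and those before the *Pou5f1* start site because they do not. Each stretch is the 120 bases before the RefSeq start site in GRCm38.p6, on the plus strand, 5′ to 3′, with matches to the motifs searched in capitals. *Nanog* lies at chr6:122707369-122707488, *Sox2* at chr3:34649875-34649994 and *Pou5f1* at chr17:35505912-35506031.
Nanog: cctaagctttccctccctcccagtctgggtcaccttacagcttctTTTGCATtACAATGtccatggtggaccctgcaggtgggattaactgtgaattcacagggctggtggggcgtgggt
Sox2: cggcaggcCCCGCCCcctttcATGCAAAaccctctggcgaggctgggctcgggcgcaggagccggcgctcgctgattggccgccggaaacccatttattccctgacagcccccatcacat
Pou5f1: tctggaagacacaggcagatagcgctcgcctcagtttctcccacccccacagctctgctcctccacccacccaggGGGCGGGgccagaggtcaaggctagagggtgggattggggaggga

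In the *Nanog* stretch the capitals mark the octamer core ATGCAAA on the minus strand, followed after 1 base by the SOX motif CATTGT, also on the minus strand, which is the layout of a composite OCT4 and SOX2 element. In *Sox2* they mark the octamer core on the plus strand and a GC box (GGGCGGG, a letter pattern of SP and KLF factors) on the minus strand, and in *Pou5f1* a GC box alone. Promoters of 300 bases (250 before and 50 after the start) were given for 8 members, 11 in all because *Nanog*, *Pou5f1* and *Esrrb* each had 2. Those of *Nanog* overlap and hold the same octamer core and the same SOX motif, so each of these sites is counted under both. On either strand the octamer core occurred in 3 of these 11, which belong to *Nanog* and *Sox2*, against 4.63% of 32851 mouse promoters of that length. The SOX motif occurred in 4 of 11 against 12.6%, and the GC box in 5 of 11 against 25.6%. The ESRRB motif TCAAGGTCA, held by 0.423% of all promoters, and the KLF motif GGGTGTGG, held by 3.56%, had no match in the 11. These matches describe letters in the sequence and were not tested for binding.

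By the GENCODE M21 annotation of GRCm38, *Nanog* lies on chromosome 6, *Pou5f1* on 17, *Sox2* on 3, *Utf1* on 7, *Klf2* on 8, *Klf4* on 4, *Klf5* on 14, *Esrrb* on 12, *Tfcp2l1* on 1 and *Tbx3* on 5. *Sox2* is a single-exon gene, and *Tfcp2l1*, with 15 exons in its principal transcript, has the most of the set. An exon junction after the stop codon, the best known mark of an NMD target, was found in the principal coding transcript of 0 of the 10 members. None of their annotated transcripts carried the NMD biotype either. The 3′ UTR of the principal transcript ran from 122 bases in *Utf1* to 7734 bases in *Tfcp2l1*. The submitted transcript assembly held unannotated models at the loci of *Nanog* and *Tfcp2l1* (7 each), *Klf5* (6), *Klf4* (2), and *Klf2*, *Esrrb*, *Tbx3* and *Utf1* (1 each), and none for *Pou5f1* or *Sox2*. Of genes that overlap a member and copies named after one, those in the count table had few counts. Copies with other names were not searched, and low counts do not show whether reads were shared or lost. The pseudogene *Nanog-ps1* had 6 counts over all embryos beside 20086 for *Nanog*, and the antisense gene *Tbx3os1* had 20 beside 7802 for *Tbx3*. *Sox2ot*, which overlaps *Sox2* on the same strand, was not analysed here.

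The embryos had between 4056072 and 5993745 counts each, and between 14522 and 17084 genes with at least 1 count. Levels are given as counts per 1000000 counts of the library (CPM), with library totals scaled by TMM factors unless stated. Over the whole *Upf2* gene, most of which lies outside the deletion, they were 64.3 to 123 CPM in *Upf2*-null and 37.2 to 87.8 CPM in control embryos. These gene-level counts therefore do not test the genotype labels. The median correlation of log2 CPM with the other libraries was lowest in control embryo 5 (0.742), which also had the fewest genes detected, then in *Upf2*-null embryo 2 (0.774) and control embryos 2 (0.784) and 4 (0.79), and was 0.796 to 0.87 in the rest. The log2 fold changes of *Nanog* and *Utf1* stayed below 0 without any single embryo (-0.52 to -0.42 and -0.63 to -0.47) and without control embryos 2 and 4. Of 14 cumulus and granulosa markers only 2 reached the level tested. Summed over all 14 and without TMM scaling, the level was 20.3 to 52.8 CPM in *Upf2*-null and 10.2 to 75.7 CPM in control embryos. Of 14 oocyte transcripts 12 were tested, with a median log2 fold change of -0.90 and 0 calls by edgeR. Summed over all 14 in the same way, they were at 5.53 to 68.8 CPM in *Upf2*-null and 19.0 to 180 CPM in control embryos. Their part in the results below was not tested. Embryos were compared as separate samples, and litters were not given, so p-values measure the spread between these embryos.

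Per length the members spanned more than an order of magnitude in level. In CPM per kilobase of annotated exon over all 19 embryos, *Nanog* was highest at 95.6 ± 23.5 (SD, n = 19), followed by *Utf1* at 68.2 ± 22.7, *Klf5* at 52.8 ± 9.62, *Tfcp2l1* at 50.3 ± 8.44 and *Pou5f1* at 43.6 ± 16.2. Then came *Klf2* at 25.9 ± 13.3, *Tbx3* at 12.2 ± 6.41, *Klf4* at 8.45 ± 5.03, *Sox2* at 4.66 ± 3.24 and *Esrrb* at 4.09 ± 2.04. No pair of neighbours in this order was separated by more than its combined SDs. *Nanog* exceeded *Utf1* in 16 of 19 embryos and *Klf2* exceeded *Tbx3* in 17 of 19. *Pou5f1* exceeded *Klf2* in 15 of 19 and *Utf1* exceeded *Klf5* in 14 of 19. *Klf5* exceeded *Tfcp2l1* in 12 of 19, *Tfcp2l1* exceeded *Pou5f1* in 11 and *Sox2* exceeded *Esrrb* in 9. *Tbx3* exceeded *Klf4* in 12 of 19 and *Klf4* exceeded *Sox2* in 13, so the order within pairs such as these was not resolved.

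**Figure D1:**
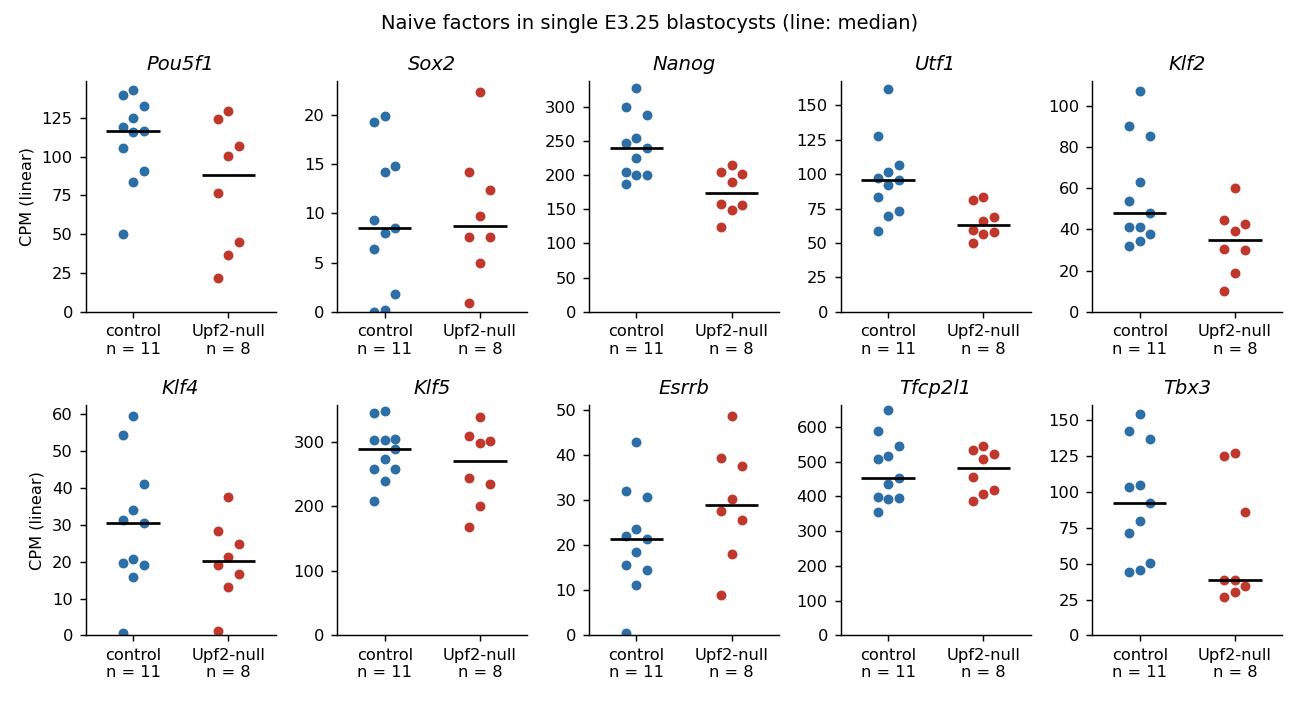
Each panel plots 1 gene in CPM on a linear axis from 0, with 1 point per embryo and a line at the median of the 11 control (blue) and 8 *Upf2*-null (red) blastocysts. All 8 *Upf2*-null embryos lie below the control median for *Nanog* and *Utf1*, and the groups overlap in every panel.

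Of the core factors, *Nanog* was lower in *Upf2*-null embryos in the number of embryos and in size, without passing the main test. Its level ran from 124 CPM through a median of 174 to 214 CPM in *Upf2*-null embryos and from 187 through 240 to 328 CPM in controls. All 8 *Upf2*-null embryos lay below the control median, 4 of them below the lowest control, and 7 of 11 controls lay above the highest *Upf2*-null embryo. The log2 fold change was -0.47 (SE 0.12, 95% interval -0.73 to -0.22). The p was 0.000867 and the adjusted p 0.15 by the quasi-likelihood test of edgeR after Benjamini-Hochberg adjustment over all genes, above the threshold of 0.1. DESeq2, the study's own tool, gave -0.48 with an adjusted p of 0.0277, and limma voom an adjusted p of 0.179. In whole embryos, fewer *Nanog*-expressing cells and less *Nanog* RNA per cell cannot be told apart.

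*Pou5f1* was spread widely among *Upf2*-null embryos. It ran from 21.8 CPM through 88.4 to 129 CPM in that group and from 50.3 through 116 to 143 CPM in controls. The coefficient of variation was 51.9% and 24.6%, a difference that was not tested. *Upf2*-null embryos 4, 5 and 7, at 21.8, 44.9 and 36.3 CPM, lay below every control, whereas *Upf2*-null embryos 1, 2 and 3, at 129, 124 and 106 CPM, lay within the range of the controls. The log2 fold change was -0.47 (SE 0.28, 95% interval -1.05 to 0.11) with an adjusted p of 0.558 by edgeR.

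*Sox2* was close to its detection limit in some libraries, and its coefficient of variation among controls, 76.1%, was the highest of the set. Its level ran from 0.871 through 8.67 to 22.4 CPM in *Upf2*-null embryos and from 0 through 8.52 to 19.9 CPM in controls. Control embryos 2 and 4 had 1.8 and 0.2 CPM of *Sox2*, and control embryo 11 had 0 counts of 5600143. That count allows up to 0.536 CPM, here without TMM scaling. Such intervals cover counting error only, since duplicates were removed by position and not by molecular tags. The log2 fold change was 0.09 (SE 0.71, 95% interval -1.38 to 1.56) with an adjusted p of 0.99 by edgeR. That interval holds a 2-fold loss and a 2-fold gain.

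*Utf1* resembled *Nanog* in how the embryos were placed. It ran from 49.8 through 62.9 to 83.1 CPM in *Upf2*-null embryos and from 58.8 through 95.4 to 162 CPM in controls, and all 8 *Upf2*-null embryos lay below the control median. The log2 fold change was -0.57 (SE 0.17, 95% interval -0.92 to -0.21), with p = 0.00313 and an adjusted p of 0.232 by edgeR's quasi-likelihood test. The adjusted p was 0.0934 by DESeq2 and 0.24 by limma voom. In all, 8 of the 11 controls exceeded the highest *Upf2*-null embryo.

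Of the 3 Krüppel-like factors, *Klf2* and *Klf4* had most *Upf2*-null embryos below the control median, and *Klf5* had 4 of 8. *Klf2*, whose protein ERK signalling destabilizes, ran from 10.0 through 35.0 to 59.9 CPM in *Upf2*-null embryos and from 32.2 through 47.9 to 107 CPM in controls. Here 7 of 8 *Upf2*-null embryos were below the control median. Its log2 fold change of -0.74 (SE 0.31, 95% interval -1.38 to -0.11) had p = 0.0243 and an adjusted p of 0.295 by edgeR. *Klf4*, a reprogramming factor downstream of STAT3, had a log2 fold change of -0.55 with a 95% interval of -1.65 to 0.55. It ran from 1.06 CPM (*Upf2*-null embryo 2) through 20.2 to 37.7 CPM in *Upf2*-null embryos. In controls it ran from 0.663 CPM (control embryo 5) through 30.6 to 59.7 CPM. For *Klf4* too, 7 of 8 *Upf2*-null embryos were below the control median. *Klf5*, which acts in both the trophectoderm and the inner cell mass, was even by comparison, from 168 through 270 to 338 CPM and from 208 through 289 to 348 CPM. Its log2 fold change was -0.12 (95% interval -0.38 to 0.13), and the groups overlapped widely.

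*Esrrb*, an orphan nuclear receptor under GSK3 control, was the member with the most positive difference. It ran from 9.06 through 28.9 to 48.7 CPM in *Upf2*-null embryos and from 0.442 through 21.4 to 43.0 CPM in controls, with a log2 fold change of 0.48 (SE 0.44, 95% interval -0.44 to 1.4) and an adjusted p of 0.796 by edgeR. With the number of genes detected as a covariate the *Esrrb* value was 1.23, with an adjusted p of 0.26 by edgeR. Control embryo 5 had the fewest genes detected (14522) and 2 *Esrrb* counts. Within genotypes, *Esrrb* had r = 0.70 with genes detected over all embryos and r = -0.0034 without that embryo. *Tfcp2l1*, a LIF and STAT3 target, had the smallest coefficient of variation over all 19 embryos, 16.8%, at 388 through 483 to 544 CPM and 355 through 452 to 649 CPM. Its log2 fold change was -0.01, with a 95% interval of -0.24 to 0.21 (adjusted p = 0.991 by edgeR). *Tfcp2l1* also had the highest mean CPM of the members, 475. Its counts reached 3058, where no gene had more than 4884 after duplicates were removed by position. Whether that removal narrowed its spread was not tested. *Tbx3*, a T-box factor, ran from 26.5 through 38.5 to 127 CPM and from 44.4 through 92.5 to 154 CPM. In this group 5 of the 8 *Upf2*-null embryos lay below the lowest control, and *Upf2*-null embryos 1, 2 and 3 lay at 125, 85.9 and 127 CPM. The log2 fold change of *Tbx3* was -0.55 (95% interval -1.26 to 0.15), with an adjusted p of 0.586 by edgeR.

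**Figure D2:**
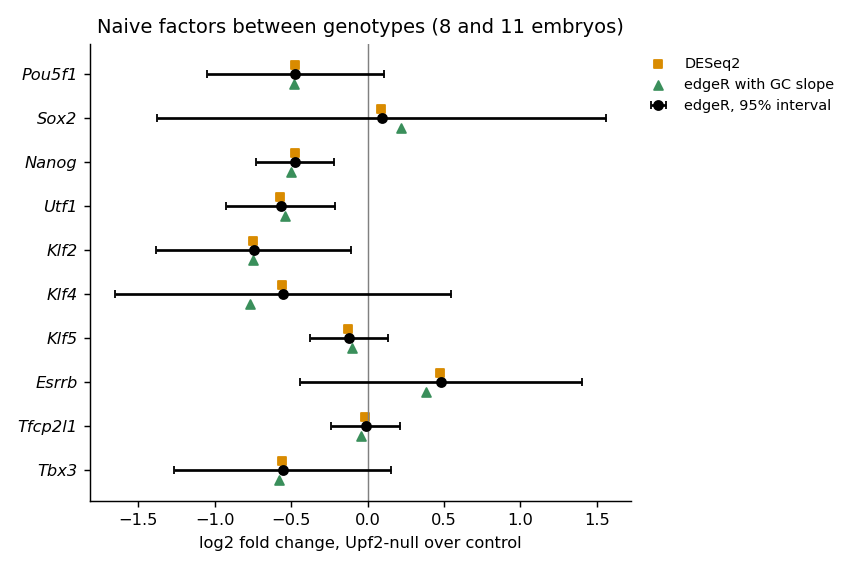
The horizontal axis gives the log2 fold change of *Upf2*-null (n = 8) over control (n = 11) embryos for each member, as estimated by edgeR with 95% intervals (circles), by DESeq2 (squares), and by edgeR with the GC slope of each library as a covariate (triangles). The intervals of *Nanog*, *Utf1* and *Klf2* lie below 0 before adjustment for the number of genes tested, and that of *Sox2* spans -1.38 to 1.56.

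Taken as a list, 8 of 10 members had a log2 fold change below 0, with a median of -0.47, beside 52.3% of all genes tested and a median of -0.02. By edgeR 0 of 10 were called at an adjusted p under 0.1, where 0.193% of all genes were called. At an unadjusted p under 0.05 there were 3 of 10 (*Nanog*, *Utf1* and *Klf2*, all lower), where 12.5% of all genes were. DESeq2 called 2 of 10 (*Nanog* and *Utf1*, both lower), where it called 1.2% of the genes it tested, and limma voom called 0 of 10, where it called 0.654%. The call for *Nanog* and *Utf1* therefore depended on the tool, while the size of the difference did not.

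In the lists of the pathways around the naive network, more log2 fold changes were below 0 than above, with medians nearer 0, and 0 genes were called by edgeR in any list. Among 25 other pluripotency genes 19 were below 0 (median log2 fold change -0.11), 3 at an unadjusted p under 0.05 and 1 called by DESeq2. That gene was *Fgf4*, the ligand that epiblast precursors send to the primitive endoderm and a target of OCT4 and SOX2, with 6.82 ± 4.87 CPM in *Upf2*-null embryos (SD, n = 8) and 34.2 ± 35.0 CPM in controls (SD, n = 11). Its log2 fold change was -2.33 and its adjusted p 0.259 by edgeR and 0.0577 by DESeq2. In the LIF and STAT3 pathway 7 of 12 genes were below 0 (median -0.10), in the FGF and ERK pathway 12 of 18 (median -0.23) and in the Wnt and GSK3 pathway 10 of 17 (median -0.23). Of 12 formative and primed epiblast genes 6 were tested and 4 were below 0. The primitive endoderm markers went the other way, with 14 of 17 tested genes above 0 (median 0.26), and trophectoderm markers were above 0 in 13 of 20 (median 0.08). The lists share *Fgf4* in 2 places and were described by counts alone.

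Ratios within a library ask whether *Nanog* differed relative to another gene of the same embryo. Against *Gata6*, the factor of the primitive endoderm, the log2 ratio of *Nanog* ran from -0.02 through 0.29 to 0.70 in *Upf2*-null embryos and from 0.40 through 0.72 to 1.68 in controls. All 8 *Upf2*-null embryos lay below the control median, and the ranges overlapped between 0.40 and 0.70. The means were 0.29 ± 0.26 (SD, n = 8) and 0.86 ± 0.46 (SD, n = 11), a difference of -0.57 with p = 0.00357 in a two-sided exact permutation test over all 75582 arrangements (adjusted p = 0.0107 over 3 ratios). *Gata6* itself was at 144 ± 31.2 and 136 ± 36.4 CPM, with a log2 fold change of 0.08 (95% interval -0.26 to 0.42), so most of the difference in the ratio was that of *Nanog* already given. The p of the ratio is no separate evidence of that difference, and it was adjusted over 3 ratios and not over all genes tested. Against *Cdx2*, the trophectoderm factor, the difference was -0.41 (adjusted exact permutation p = 0.655). Against *Pou5f1* it was 0.17 (adjusted exact permutation p = 0.655), with a spread among *Upf2*-null embryos of 1.05 (SD, n = 8) on the log2 scale.

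Members were next compared with each other between embryos, after each genotype's mean had been subtracted from log2 CPM. They did not rise and fall as a block. The median Pearson r over the 45 pairs was -0.06, with 17 of 45 above 0 and 7 of 45 (15.6%) at an absolute r of 0.5 or more. Over all 42758128 pairs of the 9248 genes with a mean of at least 10 CPM, the median was -0.01, and 17.3% reached 0.5. In a permutation of embryos within genotype with 100000 resamples, 11 of the 45 pairs had a p under 0.05, and 4 passed an adjusted p of 0.1 over the 45 pairs.

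Of those 4 pairs, 2 were negative and both involved *Sox2*. *Sox2* and *Tbx3* had r = -0.66 (permutation p = 0.00039, adjusted p = 0.0108) and rho = -0.64 (permutation p = 0.00321), and r = -0.63 without the 2 embryos farthest from the median *Sox2* level. *Sox2* and *Utf1* had r = -0.75 (permutation p = 0.00048, adjusted p = 0.0108) and rho = -0.64 (permutation p = 0.00532), and r = -0.53 without the 2 farthest embryos. The embryos with the least *Sox2* were control embryos 2, 4 and 11 and *Upf2*-null embryo 3. In control embryo 11, with 0 *Sox2* counts, *Tbx3* and *Utf1* had their highest levels of any embryo, at 154 and 162 CPM. Without control embryos 2, 4, 5 and 11, r was -0.65 for *Sox2* and *Tbx3* but -0.45 for *Sox2* and *Utf1*. The sign was the same within each genotype, at -0.65 and -0.76 for *Tbx3* and at -0.55 and -0.81 for *Utf1*, in *Upf2*-null and control embryos.

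The other 2 pairs were positive. *Tbx3* and *Utf1* had r = 0.59 (permutation p = 0.00431, adjusted p = 0.0485), rho = 0.58 (permutation p = 0.0103), and r = 0.61 without the 2 farthest embryos. *Pou5f1* and *Klf5* had r = 0.72 (permutation p = 0.00252, adjusted p = 0.0378), rho = 0.75 (permutation p = 0.00072), and r = 0.74 without the 2 farthest embryos, with 0.89 among *Upf2*-null and 0.33 among control embryos. *Klf4* and *Esrrb* also had a high r of 0.69 that did not pass (permutation p = 0.0201, adjusted p = 0.129), and r was 0.17 without control embryo 5, in which both were near 0. OCT4 and SOX2 act as partners on DNA, yet their transcripts had r = -0.12 between these embryos, and those of *Nanog* had r = -0.31 with *Pou5f1* and -0.21 with *Sox2*. None of those 3 passed the test. Nor did any of the other pairs of *Nanog*, of which *Tfcp2l1* had the highest r (0.46, adjusted permutation p = 0.205). Further pairs passed by rank but not by Pearson r, and all were negative. *Klf4* and *Esrrb* went against *Klf5* (rho = -0.71 and -0.63, adjusted permutation p = 0.0187 and 0.0399). Both also went against *Pou5f1* (rho = -0.52 and -0.65, adjusted permutation p = 0.0935 and 0.0312). *Klf4* went against *Sox2* as well (rho = -0.60, adjusted permutation p = 0.0578).

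**Figure D3:**
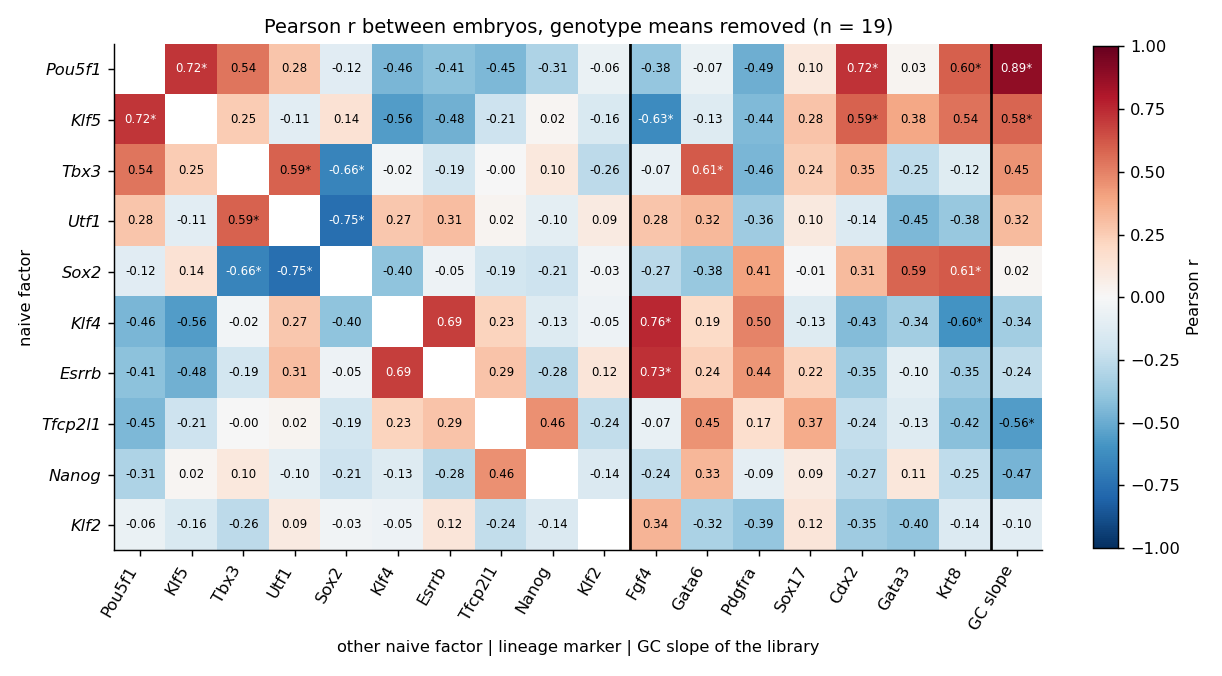
Each cell gives the Pearson r between a naive factor (row) and another naive factor, a lineage marker or the GC slope of the library (column) over 19 embryos, with genotype means removed, and an asterisk marks an adjusted permutation p under 0.1 within its family of 45, 70 or 10 relations. *Sox2* is opposite to *Tbx3* and *Utf1*, *Klf4* and *Esrrb* go with *Fgf4*, and *Pou5f1* has its highest value, 0.89, with the GC slope.

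Members were also compared with 7 markers of the 3 blastocyst lineages, and 9 of 70 relations passed an adjusted p of 0.1. *Klf4* and *Esrrb* rose and fell with *Fgf4*. For *Klf4*, r was 0.76 (permutation p = 0.00102, adjusted p = 0.0336) and rho 0.76 (permutation p = 0.00028), with r = 0.73 without the 2 embryos farthest from the median of *Fgf4*. For *Esrrb*, r was 0.73 (permutation p = 0.00144, adjusted p = 0.0336) and rho 0.62 (permutation p = 0.0058), but r was 0.37 without the 2 farthest embryos. Without control embryo 5 the values were 0.60 and 0.57. *Klf5* went against *Fgf4* (r = -0.63, permutation p = 0.00489, adjusted p = 0.0685; rho = -0.62, permutation p = 0.00685; r = -0.55 without 2).

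*Tbx3* went with *Gata6* (r = 0.61, permutation p = 0.00483, adjusted p = 0.0685; rho = 0.61, permutation p = 0.00602; r = 0.48 without 2). The trophectoderm keratin *Krt8* was positive with *Sox2* (r = 0.61, permutation p = 0.00695, adjusted p = 0.0753; rho = 0.71, permutation p = 0.00089; r = 0.57 without 2) and negative with *Klf4* (r = -0.60, permutation p = 0.0101, adjusted p = 0.0887; rho = -0.78, permutation p = 0.00021; r = -0.56 without 2). For *Sox2* and *Krt8*, r was 0.47 without control embryos 2 and 4, which were low for *Sox2*, and 0.28 without control embryos 2, 4, 5 and 11. *Cdx2* was positive with *Pou5f1* (r = 0.72, permutation p = 0.00075, adjusted p = 0.0336; rho = 0.64, permutation p = 0.00602; r = 0.79 without 2) and with *Klf5* (r = 0.59, permutation p = 0.0122, adjusted p = 0.0948; rho = 0.63, permutation p = 0.0078; r = 0.50 without 2). *Pou5f1* was also positive with *Krt8* (r = 0.60, permutation p = 0.00753, adjusted p = 0.0753; rho = 0.44, permutation p = 0.0643; r = 0.62 without 2). *Nanog*, *Utf1*, *Klf2* and *Tfcp2l1* had no relation with these markers past the threshold by Pearson r. Further relations passed by rank but not by Pearson r. *Pou5f1* went against *Pdgfra*, the receptor that marks primitive endoderm (rho = -0.72, adjusted permutation p = 0.0014, and r = -0.49, adjusted permutation p = 0.142). *Klf2* went with *Fgf4* (rho = 0.59, adjusted permutation p = 0.0657, and r = 0.34, adjusted permutation p = 0.335). *Klf4* and *Esrrb* went against *Cdx2* (rho = -0.66 and -0.56, adjusted permutation p = 0.0454 and 0.0740). *Klf4* went against *Gata3* (rho = -0.57), *Esrrb* with *Pdgfra* (rho = 0.60), and *Klf5* against *Pdgfra* (rho = -0.52). *Klf5* went with *Gata3* and *Krt8* (rho = 0.48 and 0.54). *Pou5f1* with *Krt8* did not pass by rank (adjusted permutation p = 0.214).

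**Figure D4:**
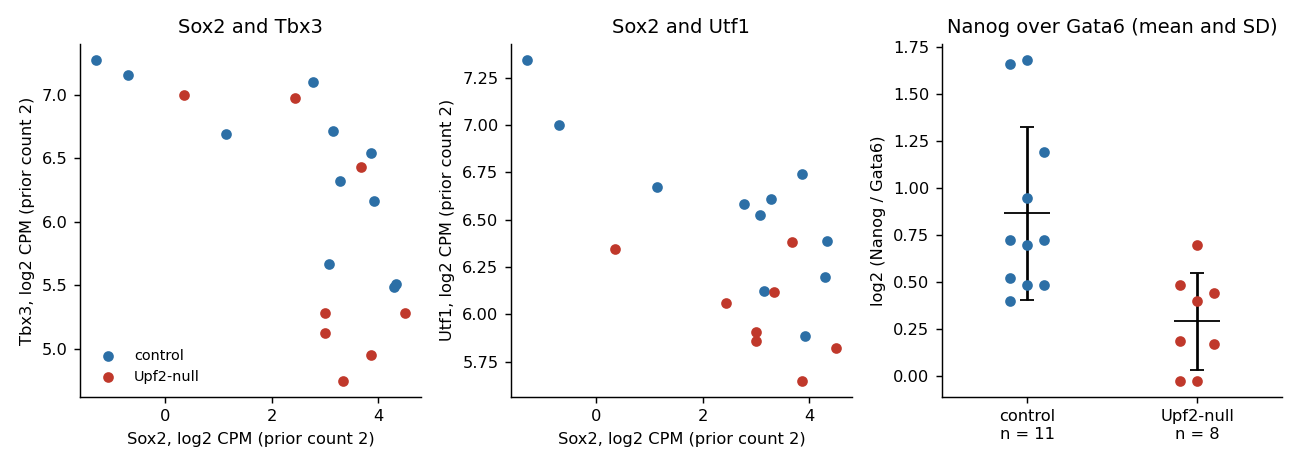
The first panels plot *Tbx3* and *Utf1* against *Sox2* in log2 CPM (prior count 2), with 1 point per embryo (blue, 11 control; red, 8 *Upf2*-null), and the last panel plots the log2 ratio of *Nanog* to *Gata6* with mean and SD. The highest *Utf1* values are in control embryos 11 and 4, which had the least *Sox2*, and the ratio averages 0.29 in *Upf2*-null and 0.86 in control embryos.

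The relations of *Pou5f1* moved with a slope fitted to the expression values of each embryo. For each embryo a GC slope, a measure chosen after the levels had been seen, was fitted as the change in log2 CPM, relative to the mean of all embryos, per 10 percentage points of GC in a gene's longest transcript, over 9217 genes that left out the members. It ran from -0.52 through 0.07 to 0.24 in *Upf2*-null and from -0.32 through 0.09 to 0.30 in control embryos, so it differed more within genotypes than between them. Because the slope was fitted to RNA of whole embryos, technical differences between libraries and differences in stage or cell make-up cannot be told apart in it. *Pou5f1*, at 57.6% GC, had r = 0.89 with this slope (permutation p = 2e-05, adjusted p = 0.0002 over 10 relations), rho = 0.79 (permutation p = 0.00066), and r = 0.82 without the 2 farthest embryos. *Upf2*-null embryos 4, 5 and 7, the lowest for *Pou5f1*, had the lowest slopes of that group, at -0.52, -0.26 and -0.40. *Utf1* (63.5% GC) and *Klf2* (61.6%), the members with the highest GC, had r = 0.32 and -0.10 with the slope, and neither passed. The share of all genes that go with the slope is not given here. *Klf5* (47.9% GC) passed with r = 0.58 (permutation p = 0.0192, adjusted p = 0.0639), rho = 0.55 (permutation p = 0.0269) and r = 0.37 without 2. *Tfcp2l1* (47.0% GC) passed in the opposite direction with r = -0.56 (permutation p = 0.0103, adjusted p = 0.0513), rho = -0.44 (permutation p = 0.0514) and r = -0.54 without 2. By rank, *Klf4* (rho = -0.58, adjusted permutation p = 0.0502) and *Esrrb* (rho = -0.51, adjusted permutation p = 0.0674) also passed, and *Tfcp2l1* did not (adjusted permutation p = 0.103).

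**Figure D5:**
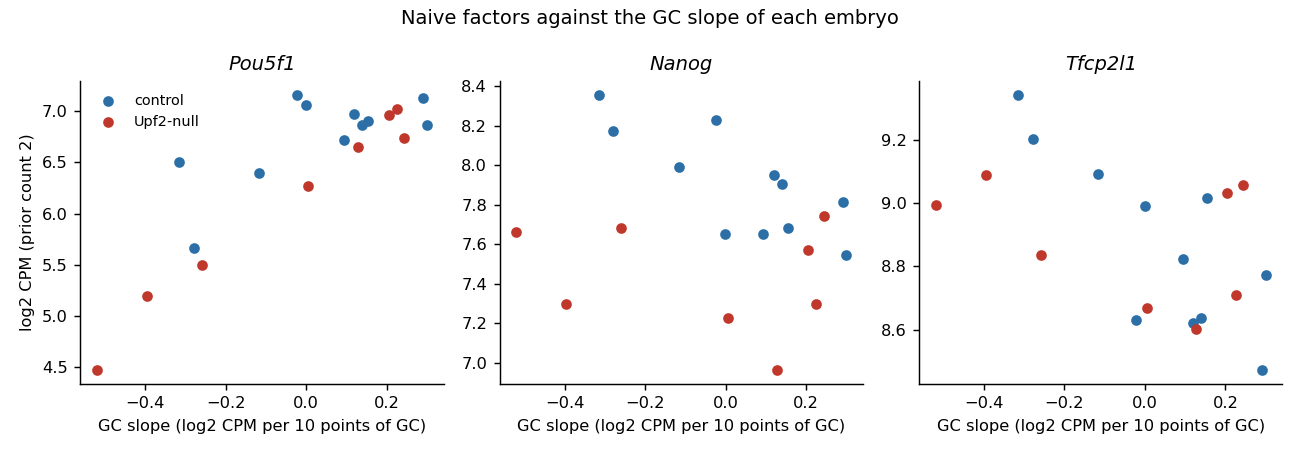
Each panel plots log2 CPM (prior count 2) of 1 gene against the GC slope of the library, in log2 CPM per 10 percentage points of GC, with 1 point per embryo (blue, 11 control; red, 8 *Upf2*-null). *Pou5f1* climbs with the slope (r = 0.89 within genotypes), *Tfcp2l1* declines (r = -0.56), and the red *Nanog* points lie mostly below the blue ones.

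With the slope regressed out, r dropped from 0.72 to 0.22 for *Pou5f1* and *Cdx2*, from 0.60 to 0.16 for *Pou5f1* and *Krt8*, from 0.59 to 0.29 for *Klf5* and *Cdx2*, and from 0.72 to 0.53 for *Pou5f1* and *Klf5*, and none of these passed any longer. The pairs of *Sox2* with *Tbx3* (r = -0.75, adjusted permutation p = 0.0063) and *Utf1* (r = -0.80, adjusted permutation p = 0.00135) and the relations of *Klf4* and *Esrrb* with *Fgf4* (r = 0.73 and 0.71, adjusted permutation p = 0.0519 each) and of *Tbx3* with *Gata6* (r = 0.75, adjusted permutation p = 0.0238) remained past the threshold. So did *Sox2* with *Krt8* (r = 0.75, adjusted permutation p = 0.0238), and *Utf1* with *Krt8* passed with the slope regressed out (r = -0.75, adjusted permutation p = 0.0238) where r had been -0.38. *Tbx3* and *Utf1* no longer passed (r = 0.53, adjusted permutation p = 0.224), nor did *Klf5* with *Fgf4* (r = -0.57, adjusted permutation p = 0.177) or *Klf4* with *Krt8* (r = -0.52, adjusted permutation p = 0.215).

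Entering the slope as a covariate in the comparison of genotypes left the *Nanog* difference at -0.50 and brought its adjusted p by edgeR to 0.0587, the only member of 10 called, where 0.729% of all genes were. *Pou5f1* stayed at -0.48, while its unadjusted p went from 0.105 to 0.0052 (adjusted p = 0.194 by edgeR). *Utf1* was at -0.54 (adjusted p = 0.176 by edgeR). The *Nanog* to *Gata6* difference was -0.60 with the slope removed (adjusted exact permutation p = 0.00639). Of 20 relations with other library measures 2 passed, those of *Tbx3* with log2 total count (r = 0.66, permutation p = 0.00392, adjusted p = 0.0784; rho = 0.66, permutation p = 0.00443; r = 0.56 without 2) and of *Klf4* with genes detected. The latter (r = 0.74, permutation p = 0.00994, adjusted p = 0.0994; rho = 0.21, permutation p = 0.399) was 0.37 without control embryo 5 (adjusted permutation p = 0.566) and -0.16 without the 2 farthest embryos, control embryo 5 and *Upf2*-null embryo 2.

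The genes most like each member between embryos were found among 9239 others with a mean of at least 10 CPM, by Pearson r over 19 embryos with genotype means removed. For *Pou5f1* they were *Cd2bp2*, *Actr1b* and *Arhgef16*, with r from 0.97 to 0.98. For *Klf4* they were *Tmed5*, *Acpp* and *Acer3* (0.95 each), and for *Esrrb* they were *Arid2*, *Cgrrf1* and *Usp32* (0.93 to 0.95). *Sox2* was most like *Wfdc2*, *Tcta* and *Lgals4* (0.86 to 0.87), *Tbx3* like *Mapk6*, *Mcl1* and *Kctd10* (0.84 to 0.87), and *Utf1* like *Zap70*, *Klb* and *Eloa* (0.81 to 0.84). *Nanog* was most like *Zpbp2*, *Cops2* and *Fancm* (0.80 to 0.84), *Klf5* like *Ppp1cc*, *Rbpms* and *Rab1b* (0.82 to 0.83), *Tfcp2l1* like *Efr3a*, *Cnot1* and *Gm1976* (0.78 to 0.81), and *Klf2* like *Clip1*, *L1td1* and *Npr3* (0.72 to 0.78). These points share libraries and their depth and GC slope, and the values are descriptions chosen as the highest of many.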

How the data were processed

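Whole E3.25 mouse blastocysts (8 *Upf2*-null, 11 control) were sequenced after SMARTer cDNA synthesis and Nextera XT library preparation. After adapter trimming the authors used STAR (version 2.5.2a, GRCm38) for alignment, discarded PCR duplicates by position with SAMtools, and deposited raw read counts that featureCounts gave per Ensembl gene. Libraries of the same genotype differed beyond sampling noise (chi-square per gene of 10.0 or more for each pair). The highest count of any gene was 4884. A second deposited table, which the authors' methods call TPM, held those counts multiplied by 1 factor per embryo (100% of values whole reads within 0.01), with no scaling by gene length, and was treated as a signal scaled per library. It covered 16878 genes and served as an alternative. The added ERCC spike-ins were not used to scale the libraries, so levels are relative to the counts of each library, scaled with TMM factors.

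The 17137 genes that reached 10 counts in any embryo entered edgeR 4.0.16 (R 4.3.3) with TMM factors and its robust quasi-likelihood F test, and were called at a Benjamini-Hochberg adjusted p under 0.1 over all genes. DESeq2 1.42.0 and limma 3.58.1 (voom with sample quality weights) were alternatives. DESeq2, the authors' tool, leaves genes without an adjusted p out of its count of genes tested. Correlations used log2 CPM with a prior count of 2 less genotype means, with 100000 permutations of embryos within genotype. The smallest p they can give is 1e-05. Ratios used all 75582 arrangements in an exact permutation test. The edgeR step and the permutation of correlations were tested on simulated data. Symbols, exons and transcript GC came from GENCODE M21, and promoters from RefSeq (GRCm38.p6).

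The 10 members and the other gene lists were chosen with earlier results of these data known. Genes named outside the members were, in each list, those called and the 3 with the lowest p, and for each member the 3 most like it, except 1 gene that is not reported here. The GC slope, and the alternatives that use it, total count as a covariate, recovered reads, the unblocked fit of the same 16 embryos, leaving out control embryos 2, 4, 5 and 11, and the alternatives for lineage and library measures, were added after seeing the data.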

Additional observations from a re-analysis of the deposited data

How the results depend on the processing

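Members called numbered 0 by edgeR in the settings tried, including each embryo left out (0 to 0), except 2 by DESeq2 and 1 with the GC slope as covariate. Replicate numbers did not pair embryos across genotypes: same-numbered embryos had correlations of -0.29 to 0.16, and 0 of 8 correlated best with their own number. With a replicate block over 16 embryos 0 members were called and *Nanog* was at -0.50 (adjusted p = 0.668 by edgeR). Over 33 alternatives *Nanog* ranged from -0.52 to -0.40, *Utf1* from -0.63 to -0.45, *Klf2* from -0.91 to -0.56, *Pou5f1* from -0.67 to -0.33, *Tbx3* from -0.78 to -0.44, *Klf4* from -0.77 to -0.12, *Klf5* from -0.19 to -0.051 and *Esrrb* from 0.33 to 1.23. Genes detected as covariate gave the *Esrrb* maximum and the *Klf4* value of -0.12, and leaving out *Upf2*-null embryo 7 gave the *Klf5* value of -0.051. *Sox2* and *Tfcp2l1*, both close to 0, changed sign in 17 cases. *Sox2* was at -0.071 with genes detected as covariate, -0.058 with log2 total count as covariate and -0.18 without control embryos 2 and 4, and leaving out single embryos gave -0.20 to 0.27. *Tfcp2l1* was at 0.042 by limma voom, 0.0074 with genes detected, 0.00058 with log2 total count and 0.050 without control embryos 2 and 4, and leaving out single embryos gave -0.049 to 0.034. The cause was not tested.

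Of 45 pairs, 4 passed, against 9 by Spearman's rho, 1 in controls alone, 0 in *Upf2*-null embryos alone, 0 without control embryos 2, 4, 5 and 11 and 2 with the GC slope regressed out. Leaving out single embryos gave 2 (without control embryo 11) to 7 (without *Upf2*-null embryo 3). Several of these settings hold fewer embryos. Lineage relations numbered 9, against 17 by Spearman's rho, 14 without control embryo 5 and 5 with the GC slope regressed out. Library relations numbered 2, against 1 by Spearman's rho. Without control embryo 5, *Esrrb* went against log2 total count (r = -0.68, adjusted permutation p = 0.0532). With all embryos that r was -0.30 (adjusted permutation p = 0.421). The difference in *Nanog* to *Gata6* kept its sign and its call in all 23 alternatives (-0.63 to -0.49, adjusted exact permutation p from 0.00639 to 0.0324), and leaving out single embryos gave values inside that range. These alternatives reuse the same embryos and mostly repeat the difference in *Nanog*. The *Nanog* to *Pou5f1* difference changed sign with the GC slope removed (-0.059) and without *Upf2*-null embryo 4 (-0.092), and leaving out single embryos reached 0.32. The *Nanog* to *Cdx2* difference ranged from -0.71 (*Upf2*-null embryo 4 left out) to -0.18 (*Upf2*-null embryo 1 left out), and became -0.70 with the GC slope removed, with an adjusted exact permutation p of 0.0501.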

Other observations

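Within the pathway lists, the genes with the lowest p were lower in *Upf2*-null embryos more often than higher, and none passed edgeR's adjusted p. Over all genes tested the lean was also to lower, with 1264 lower and 883 higher at an unadjusted edgeR p under 0.05. *Fbxo15*, an F-box gene marking pluripotent cells, had 308 ± 48.1 CPM in *Upf2*-null embryos (SD, n = 8) and 391.7 ± 81.6 CPM in controls (SD, n = 11), and *Myc* at 35.5 ± 14.4 against 65.4 ± 40.5 CPM. *Socs3*, the feedback inhibitor of LIF signalling, had a log2 fold change of -3.46 from low levels (0.616 ± 0.767 against 7.02 ± 12.8 CPM), and *Lif* and *Socs1* were at -0.96 and -0.56. In the FGF and ERK list, *Grb2* was at -0.59. In the Wnt and GSK3 list, *Csnk1a1* was at -0.34, *Lrp6* at 0.56 and *Dvl3* at -0.59.

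Of the primitive endoderm markers, *Cubn*, *Serpinh1* and *Pdgfra* had log2 fold changes of 0.87, 1.28 and 0.94. Of the trophectoderm markers, *Aqp3*, a water channel, was at 115 ± 74.4 against 209 ± 64.2 CPM, *Hand1* at -2.70 and *Id2* at 0.53. In the formative list, *T* had 0 counts in every control and 0.536 ± 1.38 CPM in *Upf2*-null embryos, *Pou3f1* was at -1.39 and *Dnmt3b* at -0.11. Of the oocyte transcripts, *Padi6* was at 15.3 ± 9.20 against 38.3 ± 28.1 CPM and *Mos* at -2.29 from means under 1 CPM, and *Oosp1* had 0 counts in all *Upf2*-null embryos and 0.970 ± 1.42 CPM in controls. Of the cumulus and granulosa markers, *Amhr2* was at 0.10 and *Cyp11a1* at 0.01.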
